A study of Mus musculus with 6 samples.

Results

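The 3 control libraries of the series, out of 6 in all, hold polyadenylated RNA of the cerebral cortex. The mice were C57BL/6, 7 days old after birth, and of the genotype given as wild type. They were chosen by their titles, and each is called here by its replicate number. Every row of each library was used, 35857 in all, and a row counted as expressed at a mean of at least 1 TPM. TPM, a measure of transcript abundance, divides the estimated reads of a gene by its length and scales each library to 1000000, so levels of different genes can be set side by side. The other 3 libraries came from Qk-/- cortex of the same strain and age and were not analysed here. The labels do not say whether the replicates came from separate mice, whether tissue was pooled, or which sex the mice were. With a single group no test of a difference is possible, so values are given per library, with the SD over the 3 libraries as the error.

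In the first postnatal days the mouse cortex has nearly finished making its neurons. Those neurons are extending axons and dendrites and forming synapses, while radial glia give way to astrocytes and to oligodendrocyte precursors. Compact myelin, fast-spiking parvalbumin cells and the mature sets of receptor subunits come later. The RNA is from the whole tissue, so a level depends both on how many cells of a type were present and on how much RNA each held, and these cannot be told apart.

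Of the 35857 rows, 14994 (41.8%) had a mean of 1 TPM or more, with a median of 18.3 TPM. The libraries were alike in this: 14977 rows reached 1 TPM in replicate 1, 14897 in replicate 2 and 15044 in replicate 3, and 14105 did so in all of them. Another 13947 rows were listed at 0 in every library. The limit of 1 TPM cut through a continuous range. Kif18a, a mitotic kinesin, Tnfrsf14, a receptor of the tumour necrosis factor family, and Fhad1 lay just above it at 1.003 TPM each. Just below it were Lpp at 0.99997 TPM and Sgol1 and Cryba1 at 0.997 TPM each. Tnfrsf14 shows how loosely the limit held for single rows, with 2.11, 0.31 and 0.59 TPM in the 3 libraries.

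A small set of genes held much of the total. The top row took 2.10, 2.73 and 2.20% of all TPM in replicates 1, 2 and 3, and the top 10 rows took 6.45, 7.22 and 6.39%. The top 100 held 24.2 ± 0.57% (SD, n = 3), the top 1000 held 58.2 ± 0.47% and the top 5000 held 88.2 ± 0.24%. It took 610, 595 and 635 rows to reach 50% of the total, and 5552, 5485 and 5627 rows to reach 90%. By level, 133 rows at 1000 TPM or more held 27.9 ± 0.58%, and 1772 rows between 100 and 1000 TPM held 42.1 ± 0.24%. The 7712 rows between 10 and 100 TPM held 27.5 ± 0.32%, while the 5377 rows between 1 and 10 TPM, which are 35.9% of the expressed rows, held 2.30 ± 0.079%.

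**Figure D1:**
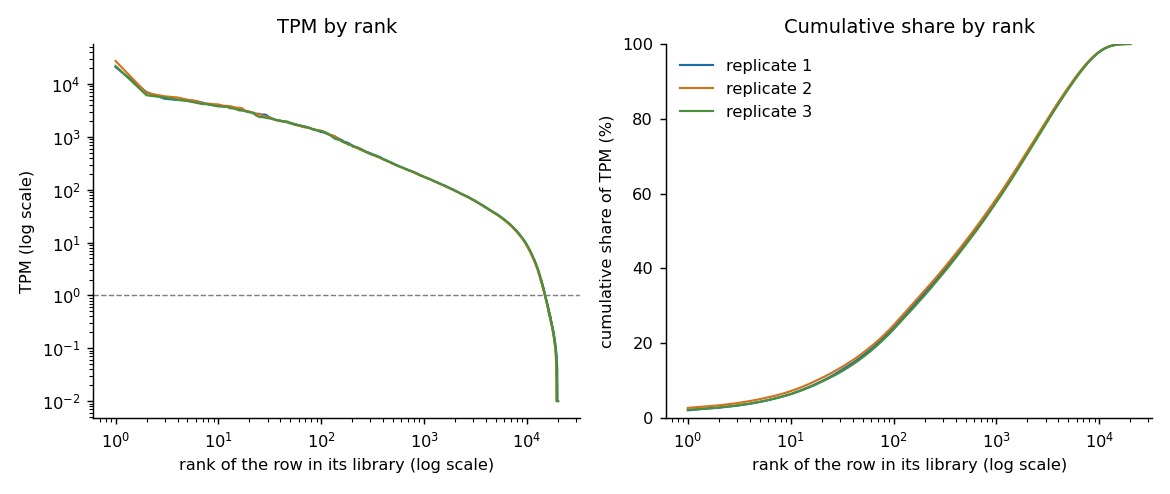
Left, TPM of each row against its rank in its own library, both on log scales, with the limit of 1 TPM dashed; right, the cumulative share of TPM in percent against the same rank, for the 3 control libraries as 3 lines. The lines run almost on top of each other, apart from the top row, which is higher in replicate 2 (27323 TPM) than in replicates 1 (20976) and 3 (21979).

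The gene of highest level was Tuba1a, the alpha-tubulin of growing neurons, with 20976, 27323 and 21979 TPM. Its mean was 3.53 times that of the next row and its range did not overlap that of any other gene. The ribosomal stalk protein Rplp1 came next with 7029, 6755 and 6130 TPM, followed by the prolyl isomerase Ppia (cyclophilin A) with 4994, 5862 and 5572 TPM. Tmsb4x, a thymosin that binds free actin, had 5284, 5565 and 5049 TPM, and the elongation factor Eef1a1 had 4924, 5059 and 4774 TPM. Also among the 10 highest rows were Tmsb10 (4305 ± 131 TPM), the microtubule destabiliser Stmn1 (4262 ± 458), cytoplasmic actin Actg1 (4032 ± 190) and ferritin heavy chain Fth1 (3751 ± 105). Below the top the exact order carried little: of the 29 pairs of neighbours among the 30 highest rows, 27 overlapped in range, and only Tuba1a with Rplp1 and Rplp1 with Ppia did not.

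The 30 highest rows held 10 cytosolic ribosomal proteins, 5 tubulins and 3 haemoglobins. The tubulins were Tuba1a, Tuba1b (3682 ± 241 TPM), Tubb2b (3608 ± 270), Tubb2a (3022 ± 231) and the neuronal Tubb3 (2410 ± 327). The ribosomal proteins included Rplp1, Rpl23a (3633 ± 246), Rplp2 (3182 ± 849), Rplp0 (2753 ± 155), Rps29 (2738 ± 140), Rpl38 (2686 ± 311), Rpl13 (2585 ± 347), Rpsa (2487 ± 221) and Rpl41 (2411 ± 777). The haemoglobins Hba-a1 (3389 ± 964), Hbb-bs (3225 ± 1031) and Hba-a2 (2391 ± 548) had, together with Rpl41 and Rplp2, the widest spread of the 30 rows relative to their means, with coefficients of variation of 22.9 to 32.2%. The rest were Gm1821, a transcribed pseudogene by RefSeq's classes (3315 ± 216), the ubiquitin gene Ubb (3103 ± 428), ferritin light chain Ftl1 (3055 ± 402), Gnas, which encodes the stimulatory G protein subunit (3044 ± 115), and Stmn2, a stathmin of growing axons (2746 ± 104). Membership of the top was steadier than order: 87 of the 100 highest rows by mean were in the top 100 of every library, and 916 of the top 1000 were in the top 1000 of every library.

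For 4 of the 74 genes of ranks 1 to 100 with a promoter in the RefSeq table (5.41%), the letters TATAAA occurred in the 40 bases before the start, on the sense strand only. The share was 2.84% of all 25733 genes with a promoter and 2.31% of all 32851 windows of the same length. These 4 are printed because they show what stands just before the start of some of the most abundant transcripts of this tissue. Each is given 5′ to 3′ on the strand of its gene from RefSeq GRCm38.p6, with the motif in capitals:
Ppia (chr11:6415826-6415855, plus strand): gcccgaaccgggTATAAAggaagccgcggc
Tubb2a (chr13:34078020-34078049, minus strand): gcggtccccgggTATAAAaggcggtgctgg
Ckb (chr12:111672349-111672378, minus strand): gaatgaatgggcTATAAAtagccgccaatg
Eef2 (chr10:81176604-81176633, plus strand): ccggcgtcgaccTATAAAaggccgggcgtt

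In Ppia and Tubb2a the motif began 29 bases before the start, in Ckb, brain creatine kinase, 28, and in the elongation factor Eef2 15. A match describes the letters only. The share with the motif was 3.69% of the 14040 genes below 1 TPM, 1.09% of those of ranks 1001 to 5000 and 2.01% of those of ranks 5001 to 14994, so it followed no steady trend with rank. CG dinucleotides differed more clearly by level. Their median over the 300 bases around the start (250 before to 50 after) was 22 for ranks 1 to 100, 22 for ranks 101 to 1000, 24 for ranks 1001 to 5000 and 20 for the other expressed rows, against 3 for rows below 1 TPM. The window of Tuba1a held 16 CG, and that of Umod, the kidney gene uromodulin, listed at 0 TPM in every library, held 0.

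Higher ranked rows came from genes with a shorter median length over their GENCODE transcripts. This length takes in every annotated transcript of a gene, whether expressed here or not. It stands at 406 bases for Notch1 and 703 for Grin2b, so it is not the length of the RNA measured. The median transcript length per gene in GENCODE went from 1843 bases at ranks 10001 to 14994 to 1668 at ranks 5001 to 10000, 1174 at 1001 to 5000, 874 at 101 to 1000 and 737 at 1 to 100. Median GC content ran the other way, from 49.6% to 54.0%. TPM contains the length as a divisor, and the part of that division in the trend was not tested.

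By gene class, protein-coding rows held nearly all of the total: 13849 of 21542 were expressed, with 97.6 ± 0.036% of TPM. Long noncoding RNA rows were mostly low, with 786 of 11125 expressed and 0.753 ± 0.015% of TPM. The highest were the imprinted Meg3 (607, 652 and 714 TPM) and Rian (363, 410 and 450 TPM), both on chromosome 12, then the clone-named 2900097C17Rik (267, 230 and 217 TPM) and Snhg11 (193, 212 and 221 TPM), a host of small nucleolar RNAs. Miat, a neuronal long noncoding RNA, had 92.7 ± 3.9 TPM. Of the 14 long noncoding RNAs of a list, 12 reached 1 TPM, and Kcnq1ot1 (0.113 TPM) and Xist did not. No mitochondrially encoded gene was among the rows.

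Some families filled the top while others were almost silent. Cytosolic ribosomal proteins held 11.3 ± 0.30% of TPM, with 82 of 86 rows expressed and 44 among the 100 highest. Tubulins held 4.004 ± 0.44% in 25 rows, of which 21 were expressed, and the nuclear-encoded respiratory chain and ATP synthase held 4.06 ± 0.10% in 97 rows, of which 94 were expressed. Translation factors held 1.604 ± 0.015% with 63 of 65 rows expressed, and proteasome subunits 0.709 ± 0.019% with 38 of 40. At the other end, 1 of 1105 olfactory receptor rows reached 1 TPM (Olfr1344, 1.45 ± 0.84 TPM), 1 of 329 vomeronasal receptor rows (Vmn2r29, 3.72 ± 0.80 TPM) and 8 of 53 keratin rows. Broad but low families lay between: 67 of 69 protocadherin rows were expressed at a median of 7.79 TPM, and 333 of 371 Zfp zinc finger rows at a median of 6.68 TPM.

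The growth machinery of neurites was abundant as a group. All 19 measured members of the list of cytoskeletal proteins of growing neurites reached 1 TPM, and they summed to 28919, 28180 and 27208 TPM, or 2.81% of the total, without counting any tubulin. After Tmsb4x, Tmsb10, Stmn1 and Stmn2 came Stmn3 (1786 ± 255 TPM), Marcksl1, Crmp1 and Gap43, the growth cone protein (1630 ± 163 TPM). The lowest was Dpysl2, a collapsin response mediator, with 84.3, 62.9 and 89.3 TPM.

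The lists of cell type markers were used to describe the makeup of the tissue. They were chosen with earlier results of these data known, so expressed members are no independent check of the tissue label. Of the 471 different genes in all 39 lists, 467 were measured and 443 reached 1 TPM. Over all protein-coding rows the share that reached 1 TPM was 64.3%. Every member was expressed in the lists of excitatory, upper layer, deep layer and subplate neurons, and of interneurons. Genes of excitatory neurons summed to 2953, 2852 and 3115 TPM over 15 members. Nrgn, a calmodulin-binding postsynaptic protein, led with 1581 ± 105 TPM, followed by the vesicular glutamate transporter Slc17a7 (484, 505 and 508 TPM), the kinase subunit Camk2a (279 ± 18 TPM) and the transcription factor Neurod6 (124 ± 4.3 TPM), down to Neurod1 at 13.3 ± 2.6 TPM.

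Genes of both deep and upper layer projection neurons were expressed. Deep layer genes summed to 564, 574 and 568 TPM, with Crym at 253 ± 15 TPM, Ldb2 at 76.2 ± 13.4, Tbr1 at 52.1 ± 1.8 and Fezf2, the selector of subcerebral projection neurons, at 43.7 ± 2.1. Foxp2 was lowest at 5.59 ± 0.81 TPM. Upper layer genes summed to 374, 393 and 410 TPM, led by Cux1 (118 ± 5.6 TPM), Lhx2 (89.0 ± 10.0), Pou3f3 (63.3 ± 3.2) and Mdga1 (37.1 ± 2.8), down to Rspo1 at 3.70 ± 0.46 TPM. Early-born cells of the margins were low but present. Subplate genes summed to 111 ± 9.0 TPM, with Ctgf at 47.1 ± 4.2 and Moxd1 lowest at 3.35 ± 0.75. Cajal-Retzius genes summed to 59.6 ± 5.4 TPM, of which Reln, the secreted guide of layering that interneurons also make, gave 82.4%. The more restricted Trp73 had 2.57 ± 0.41 TPM, Lhx5 1.17 ± 0.33 and Lhx1 0.940 ± 0.15.

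Genes of interneurons summed to 2734, 2528 and 2467 TPM, and all 22 were expressed. Peptides led: somatostatin (Sst) had 1206, 1030 and 926 TPM, neuropeptide Y (Npy) 400, 389 and 373, and cholecystokinin (Cck) 307, 282 and 266. The 3 peptides were each highest in replicate 1 and lowest in replicate 3, while other members stood in the reverse order. Among these, chosen after their values were seen, the vesicular transporter Slc32a1 had 103, 126 and 148 TPM, and the transcription factor Lhx6 had 32.2, 39.6 and 45.5. Dlx1, Dlx5 and Gad2 were also lowest in replicate 1 and highest in replicate 3. The GABA-synthesising enzyme Gad1 had 107, 106 and 112 TPM, and parvalbumin (Pvalb) was lowest with 0.58, 3.28 and 2.91 TPM. Pvalb marks fast-spiking cells in the adult cortex, and at this age replicate 1 was under 1 TPM.

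Genes of newborn neurons had the largest sum of the 21 cell type lists, 12837, 12707 and 12932 TPM. Stmn1, Stmn2, Tubb3 and Gap43 gave most of it. These are also made by growing neurons that left the cell cycle days before. The more restricted members were far lower: Dcx, a microtubule protein of migrating neurons, had 75.5, 81.4 and 77.7 TPM, and Sox11 was lowest at 17.6 ± 2.3 TPM. Genes of neurogenic progenitors summed to only 106 ± 3.9 TPM. Elavl2 (37.4 ± 2.3) and Elavl4 (32.4 ± 4.9), which neurons make too, gave most of it. Eomes, the marker of intermediate progenitors, had 10.4, 7.12 and 9.55 TPM. Neurog2 had 0.29, 1.52 and 1.10 TPM and Neurog1 was listed at 0 in all libraries. Genes of dividing cells were present at modest levels: all 16 reached 1 TPM and summed to 341 ± 17 TPM, led by Pcna (99.1 ± 5.1), with Mki67 at 3.75 ± 0.61 and Tyms lowest at 3.68 ± 0.17.

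Astroglial genes came after those of newborn neurons and red blood cells in sum, and all 20 were expressed, at 7306, 6524 and 6957 TPM. The highest were Cst3 (2001 ± 174 TPM), which microglia also make, the lipid carrier Apoe (1742, 1475 and 1592 TPM), Sparcl1 (655 ± 29) and Clu (566 ± 39). Genes of more mature astrocytes were well above the limit, with Gfap at 178 ± 6.3 TPM, the water channel Aqp4 at 46.0, 48.7 and 52.5 TPM and the gap junction protein Gjb6 lowest at 18.7 ± 1.6. The list for radial glia and stem cells summed to 2411 ± 126 TPM. The fatty acid binding proteins Fabp7 (1013, 818 and 869 TPM) and Fabp5 (602, 606 and 603 TPM) led, followed by Id3 (328 ± 8.0) and Vim (157 ± 6.2). Stem cell regulators were lower: Sox2 had 40.1 TPM, Pax6 6.64 ± 0.41, Nes 6.74 and Egfr, the lowest, 5.71 ± 0.28. Several of these radial glial genes are also made by young astrocytes.

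In the oligodendrocyte lineage, genes of precursors had a higher sum than those of newly formed and myelinating cells, and the genes under 1 TPM were all of the later stages. All 13 precursor genes were expressed and summed to 710, 705 and 766 TPM, with Cacng4 (197 ± 12), Olig1 (138 ± 13), Ptprz1 (94.6 ± 3.4) and Gpr37l1 (70.5 ± 6.5) highest and Nkx2-2 lowest (4.88 ± 0.66). Ptprz1 is also in the list for radial glia and stem cells, so the sum is not of precursors alone. The median of the members was 28.7 TPM for precursors, 8.29 for newly formed and 3.59 for myelinating cells. The growth factor receptor Pdgfra had 40.6, 42.4 and 41.7 TPM. Of the 11 genes of newly formed oligodendrocytes 10 were expressed, and the more restricted ones were modest, Gpr17 at 37.5 ± 4.8 TPM and Bcas1 at 34.6 ± 2.9, while Sirt2 (180 ± 16) and Fyn (148 ± 0.23), which neurons also make, led. Opalin was listed at 0 in all libraries. Of the 15 genes of myelinating cells 12 were expressed, at a sum of 355, 353 and 353 TPM. Myelin basic protein (Mbp) had 92.8, 92.5 and 95.2 TPM, Cnp 85.0, 92.0 and 95.6, and Car2 69.1 ± 4.4. Mag, of the inner face of the sheath, had 6.47 ± 1.09 TPM. The lowest members were Mog with 0.52, 0.77 and 1.16 TPM, Mobp 0.737 ± 0.38 and Ermn 0.303 ± 0.21.

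Other cells of the tissue were seen with their usual markers. All 15 microglial genes were expressed (422 ± 10 TPM in sum), led by the complement genes C1qb (74.9 ± 8.3) and C1qc (62.7 ± 6.4), with C1qa at 38.1 ± 1.3 and Itgam lowest at 2.61 ± 0.48. The 6 genes of border macrophages summed to 42.6 ± 7.4 TPM, from Pf4 (20.3 ± 3.4) to Cd163 (1.01 ± 0.18). Endothelial genes summed to 730, 578 and 595 TPM, and the junction protein Cldn5, with 429, 303 and 313 TPM, accounted for most of the gap between replicate 1 and the others. Slco1a4 was lowest at 4.78 ± 0.43. Pericyte and smooth muscle genes summed to 315 ± 9.7 TPM, from Vtn (172 ± 8.6) to the contractile Myh11 (1.76 ± 0.12), and meningeal fibroblast genes to 515 ± 44 TPM, from Igf2 (208 ± 28) to Lama1 (2.76 ± 0.19).

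A few lists held cells that lie beside the cortex or in its vessels, among them the 2 lists whose sums varied most. Choroid plexus genes summed to 1621, 815 and 1546 TPM. Transthyretin (Ttr), the plexus' main secreted protein, gave 91.2% of it with 1495, 724 and 1412 TPM, and the folate receptor Folr1 had 25.1, 14.0 and 29.7 TPM. Clic6 (5.40, 3.33 and 6.34 TPM) and Kcnj13 (3.57, 2.85 and 5.37 TPM) were also lowest in replicate 2. Prlr was under 1 TPM. Ependymal genes summed to 76.9 ± 11.2 TPM, from Rarres2 (26.5 ± 3.4) to Ccdc153 (3.63 ± 1.52), and replicate 2 had the lowest sum here as well, with 64.6 TPM against 79.2 and 86.7.

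Genes of red blood cells summed to 11126, 12560 and 6965 TPM, with replicate 3 the lowest. Hba-a1 had 3540, 4269 and 2358 TPM, Hbb-bs 3761, 3877 and 2037, Hbb-bt 1305, 1504 and 757, and Alas2, the first enzyme of haem synthesis in red cells, 23.0, 28.7 and 14.9. The libraries stood in the same order in all 4 of these genes. The membrane gene Slc4a1 (0.820 ± 0.32 TPM) was under 1 TPM. The coding frames of Hba-a1 and Hba-a2 differed at 1 of 429 bases and those of Hbb-bs and Hbb-bt at 1 of 444, so the split within each pair is uncertain, while the sum of each pair is not affected by it: 6036, 7147 and 4156 TPM for alpha and 5066, 5382 and 2794 TPM for beta. Haemoglobins together held 1.11, 1.253 and 0.695% of TPM.

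Genes of neighbouring regions and other organs were listed the same way. Genes of the striatum summed to 424, 505 and 520 TPM with all 12 expressed: Ppp1r1b had 88.4, 103 and 124 TPM, Penk 76.8, 104 and 95.6, Tac1 80.5 ± 3.1 and Six3, lowest, 3.12, 5.65 and 8.94. The receptor genes Drd1 (10.5 ± 0.76) and Adora2a (30.3 TPM) were also seen. Cortical neurons make several of these, and whether striatal tissue was included was not tested. Of 10 thalamic genes 9 were expressed, at a sum of 289 ± 14 TPM. Calb2 (119 ± 16), Lhx2 (89.0 ± 10.0), Slc17a6 (31.6 ± 2.3) and Prkcd (24.1 ± 2.7) were highest, and Gbx2 was lowest with 0, 0.12 and 0.46 TPM. Of 8 hippocampal genes 7 were expressed, at a sum of 198 ± 9.2 TPM, from Bok (107 ± 5.6) to Lct (0.870 ± 0.13). Lhx2, Slc17a6 and Calb2 are also in lists of cortical neurons, and whether tissue of either region was included was not tested. Of 12 genes of other organs 3 reached 1 TPM, with Ins2 highest at 2.89 ± 0.74 TPM and liver albumin (Alb) at 0.043 TPM.

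**Figure D2:**
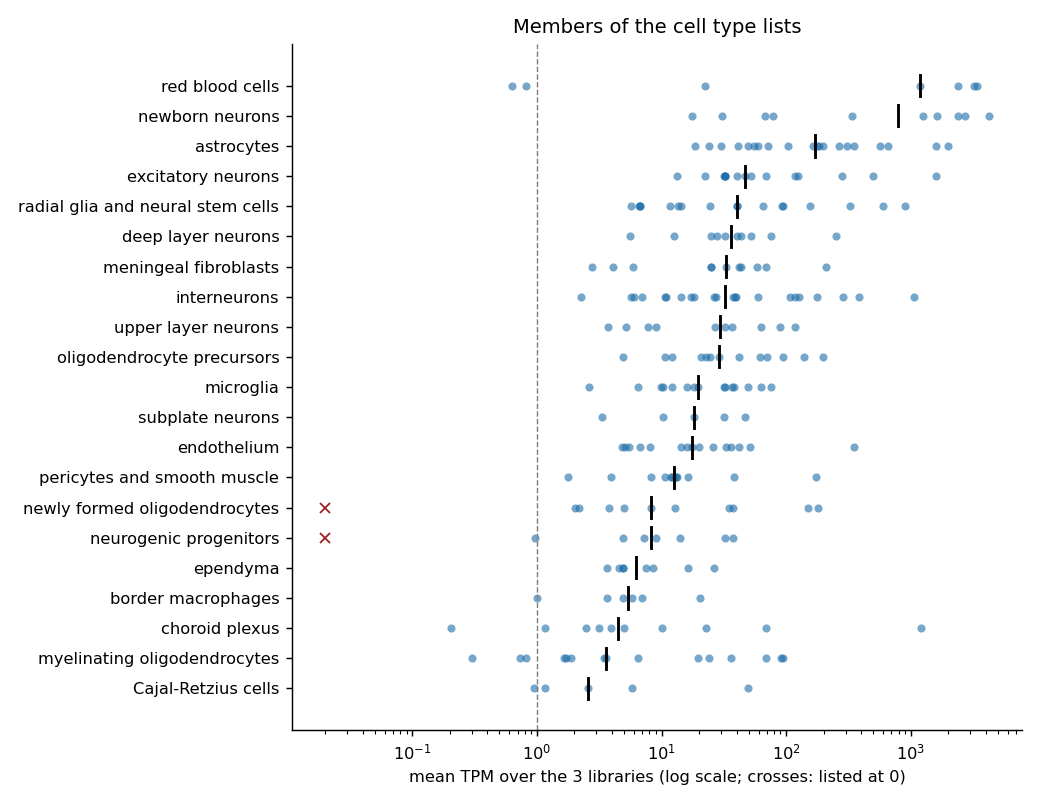
Mean TPM over the 3 control libraries (log scale) of each member of the 21 cell type lists, as points, with the list median as a black bar, the limit of 1 TPM dashed and genes listed at 0 as crosses at the left edge. Lists are ordered by median; those of red blood cells, newborn neurons and astrocytes are highest, and Opalin and Neurog1 are the genes listed at 0.

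Genes of the synapse were broadly expressed. All 17 genes of vesicles and release were expressed and summed to 4850, 4914 and 4955 TPM, led by Rab3a (742 ± 37), Snap25 (559, 563 and 556 TPM), with Syp at 459 ± 16 and Vamp1 lowest (6.46 ± 0.85). All 16 postsynaptic scaffold genes were expressed (2049 ± 87 TPM), from Dlg4 (PSD-95, 501 ± 40) to Homer2 (16.98 ± 1.1). Glutamate receptor genes summed to 1094, 1089 and 1124 TPM with all 22 expressed. The obligatory NMDA subunit Grin1 led at 237 ± 7.6 TPM, followed by Grik5 (175 ± 14), Gria1 (119 ± 10) and Gria2 (104 ± 2.6), and Grin2c was lowest at 3.87 ± 0.67. Of 13 GABA-A receptor genes 12 were expressed: Gabra5 (126 ± 13) was among the highest, and Gabra6, the cerebellar subunit, was listed at 0. Activity-regulated genes were present at 259 ± 22 TPM in sum. Of these, Jun (57.4 ± 1.7 TPM) was highest, Egr2 (2.05 ± 0.38) lowest, and Fos had 13.8, 7.47 and 14.0 TPM.

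Housekeeping groups were expressed in full. All 16 glycolytic genes summed to 7028 ± 155 TPM, led by Eno1 (1357 ± 74), Aldoa (876 ± 28), Gapdh (688 ± 25) and Pgam1 (670 ± 55), with Pfkl lowest (49.5 ± 2.6). Chaperones summed to 11803 ± 378 TPM, of which Ppia gave 46.4%, followed by Hspa8 (1971 ± 39) and Hsp90ab1 (1605, 1392 and 1889 TPM). Neuropeptides and granins summed to 2534 ± 180 TPM, where Sst, Npy and Cck were followed by Chga (175 ± 12), and Crh was lowest (4.74 ± 0.65). Among 47 transcription factors of the cortex all were expressed, most strongly Id3, Lmo4 (305 ± 8.9), Zbtb18 (263 ± 6.8) and Id2 (217, 298 and 255 TPM), and least Rorb (5.95, 3.07 and 6.47 TPM).

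To describe genes tied to stage, 19 pairs of genes were compared within each library, each with a member taken as early and one taken as late. Whether each member is early or late in the cortex was not tested. No other age was measured, so the order within a pair does not by itself place the tissue along development. The early member was higher in all libraries in 12 pairs, the late member in 6, and in 1 pair the ranges of the 2 genes overlapped. Pairs of the cytoskeleton mostly stood on the early side. Tuba1a was 73.2 ± 14.1 times Tuba4a (ratio per library, SD, n = 3), Tubb2b was 6.501 ± 0.14 times Tubb4a, and the medium neurofilament Nefm was 14.8 ± 2.3 times the heavy one, Nefh (63.5, 74.2 and 82.7 against 5.21, 4.46 and 5.34 TPM). Map1b was 2.42 ± 0.17 times Map1a.

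Matrix and glial pairs spread over both sides. Neurocan (Ncan: 202, 172 and 219 TPM) far exceeded aggrecan (Acan: 2.45, 1.57 and 1.19 TPM), the core of perineuronal nets, at ratios of 82.6, 110 and 184. Pdgfra was 78.0, 55.03 and 35.9 times Mog. The glial filaments were close, with Vim at 162, 150 and 159 TPM and Gfap at 172, 176 and 184. Tenascins C and R did not separate: Tnc had 25.3, 20.6 and 27.5 TPM and Tnr 21.4, 22.3 and 24.0.

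Pairs of synapse and excitability genes were divided. On the early side, Grin2b (18.9, 11.9 and 15.4 TPM) exceeded Grin2a (5.39, 4.66 and 3.33), Scn3a was 2.22 ± 0.31 times Scn1a, Camk2b was 1.67 ± 0.042 times Camk2a, and Vamp2 was 59.0 ± 8.3 times Vamp1. The enolase Eno1 was 4.82 ± 0.32 times the neuronal Eno2. Calretinin (Calb2: 135, 104 and 118 TPM) exceeded Pvalb at 233, 31.6 and 40.4 to 1, a wide range set by the low Pvalb of replicate 1. On the late side, the chloride exporter Slc12a5 (KCC2: 150, 144 and 154 TPM) was 14.9 ± 0.50 times the importer Slc12a2 (NKCC1: 9.83, 10.0 and 10.1 TPM). Dlg4 was 6.90 ± 0.31 times Dlg3, Rbfox3 (NeuN) 2.43 ± 0.12 times Dcx, Syt1 3.05 ± 0.23 times Syt4, and the light neurofilament Nefl 1.505 ± 0.066 times Ina. A TPM of a gene with long or many transcripts rests on the authors' effective length, so a ratio close to 1 is less firm than its SD shows.

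**Figure D3:**
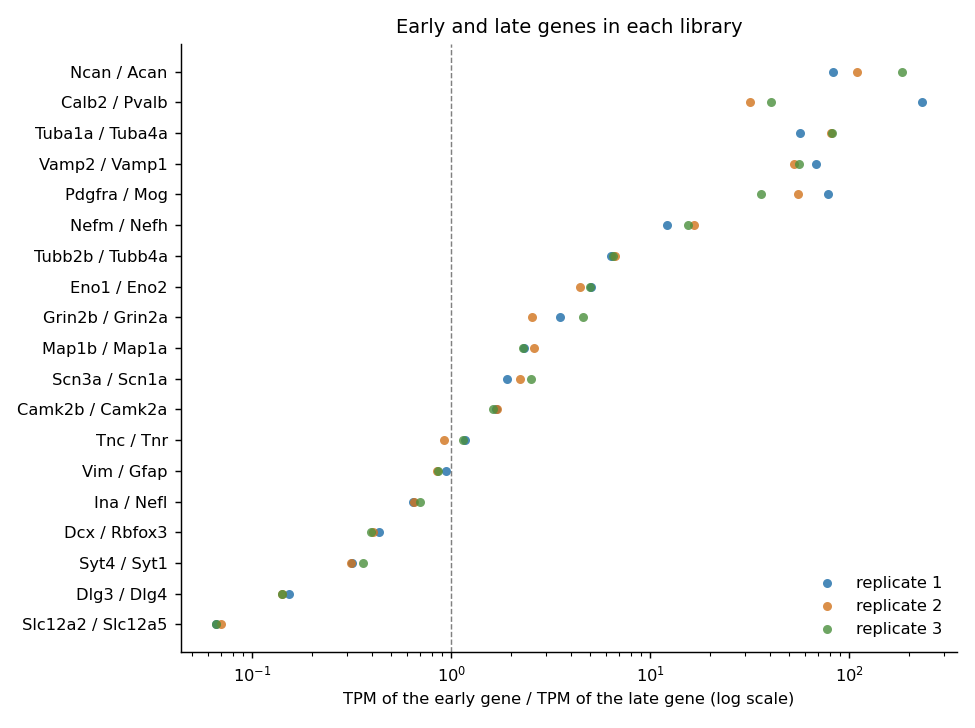
Ratio of the TPM of the early gene to that of the late gene (log scale) in each of the 3 control libraries, 1 line per pair, with a ratio of 1 dashed. Points to the right have the early gene higher: 12 pairs lie wholly there, 6 wholly to the left, and Tnc to Tnr crosses the line.

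The sex-linked genes gave the same picture in all libraries. Eif2s3y had 35.4, 34.3 and 35.4 TPM, Ddx3y 13.4, 14.3 and 13.3, Kdm5d 4.71, 6.19 and 5.21 and Uty 2.81, 3.18 and 3.07. Xist, the RNA that coats the silenced X in females, had 0.03, 0 and 0.01 TPM. Y-linked RNA was thus present, and Xist at or near 0, in every library.

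Rows named for microRNAs held 0.466 ± 0.059% of TPM, most of it in a few rows. Of 1185 such rows 24 had a mean of 1 TPM or more, and 4 of them, Mir1893, Mir1906-1, Mir1906-2 and Mir700, held 4215 of the 4657 TPM of all miRNA rows. The libraries were made from polyadenylated RNA, which does not hold mature microRNAs. The 24 rows are 79 to 147 bases long, all lie within another gene and 13 wholly within an exon of one, such as Mir1906-1 (chromosome 12, 109544541 to 109544620) in Meg3, so reads of the host transcript can fall in them, which was not tested. The mature sequences of the rows that share values are printed to show that rows with equal values carry equal mature sequences, and those of Mir700 beside them, from RefSeq GRCm38.p6, 5′ to 3′, with the seed (bases 2 to 8) in capitals:
Mir1906-1 (chromosome 12): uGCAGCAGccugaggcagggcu
Mir1906-2 (chromosome X): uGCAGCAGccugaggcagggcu
Mir692-2 (chromosome 4): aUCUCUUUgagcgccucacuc
Mir692-3 (chromosome 13): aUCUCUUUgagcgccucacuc
Mir700, 3p arm (chromosome 4): cACGCGGGaaccgaguccacc
Mir700, 5p arm (chromosome 4): uAAGGCUCcuuccugugcuugc

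Mir1906-1 and Mir1906-2 share the mature sequence and had the same TPM in each library, 1019, 1107 and 707. Mir692-2 and Mir692-3 likewise both had 0, 0 and 15.7 TPM. Mir700 had 803, 1077 and 792 TPM, while the gene around it on the same strand, Rcan3, had a mean of 39.3 TPM. Of the 24 rows, 19 were at 0 in at least 1 library and 14 were above 0 in only 1. For a row this short a few reads make a large TPM, and these levels are not those of the microRNAs.

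The 3 libraries resembled each other closely. Across the 14994 expressed rows, Pearson's correlation of log2(TPM + 1) was 0.977 between replicates 1 and 2, 0.981 between 1 and 3 and 0.981 between 2 and 3, as a description over genes, which share each library. Between 92.5 and 93.3% of rows lay within 1.5-fold in a pair, and only 35 to 59 rows had identical values, so no pair of libraries was a duplicate. The coefficient of variation (CV, the SD over the mean) had a median of 10.0%. It depended on level: the median was 33.0% at 1 to 2 TPM, 20.1% at 2 to 5, 13.3% at 5 to 10, 8.12% at 10 to 100, 6.24% at 100 to 1000 and 7.86% at 1000 or more. A difference of a given fold is thus least certain for the lowest rows, and 173 expressed rows were at 0 in some library.

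**Figure D4:**
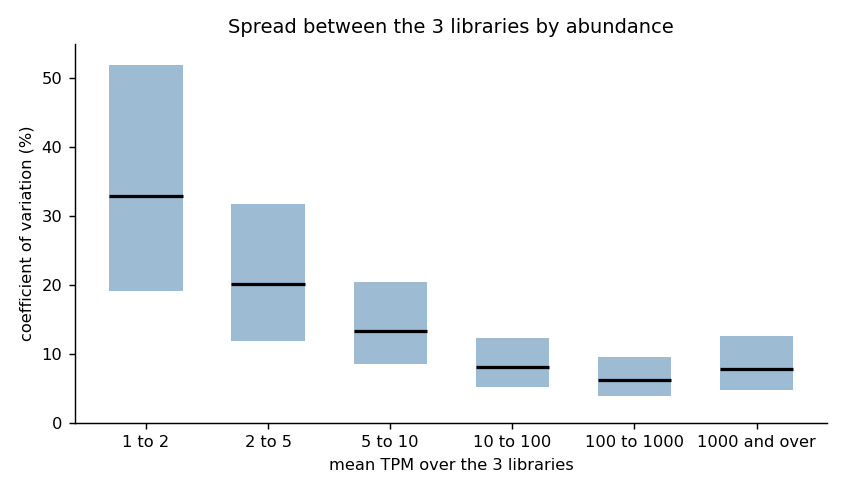
Coefficient of variation over the 3 control libraries (percent) by mean TPM, with bars from the lower to the upper quartile of the rows in each range and the median as a black line. The median goes from 33.0% at 1 to 2 TPM to 6.24% at 100 to 1000 TPM and 7.86% above that.

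Among rows with at least 10 TPM, the 8 steadiest had CVs of 0.106 to 0.173%. They were the calcineurin subunit Ppp3ca (183, 183 and 183 TPM), Mettl23, the kinase Akt1 (338, 338 and 337 TPM), Slc35a4, the kinase Fyn, Mical2, Ivd and Cpeb3 (11.5 TPM in each library). This order of 9244 rows rests on 3 values each and is a description of these libraries only. The 15 most variable rows were mostly small RNAs: 6 miRNA rows (Mir7082, Mir1897, Mir5125, Mir5122, Mir3057 and Mir546), 5 snoRNA rows (Snord35a, Snord32a, Snora64, Snord22 and Snora52), the U1 row Rnu1a1 and the Y RNA Rny1. Atp6v0c-ps2, a copy of a gene on chromosome 17, was also among them.

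To see whether a library stood apart for particular genes, the 9379 protein-coding genes averaging 10 TPM or more were each examined for whether 1 library differed at least 1.5-fold, on the scale of TPM + 1, from both others. Replicate 1 did so for 51 genes (0.544%), replicate 2 for 33 (0.352%) and replicate 3 for 29 (0.309%). In replicate 1, 14 of the 51 genes (27.5%) lay on chromosome 17, which carries 4.77% of the genes examined. On that chromosome 14 of 447 genes were apart (3.13%), against 37 of 8932 (0.414%) on the others. The next highest was chromosome 19 with 5 of 336 (1.49%). Replicate 2 had 0 of its 33 on chromosome 17 and replicate 3 had 2 of 29. All 14 lay before 50 Mb, where 329 genes were examined (4.26%), and 0 of 118 lay beyond; 10 of them fell between 20 and 40 Mb. The rule and these limits were chosen after the values were seen. Under 5 other settings the share of replicate 1's genes on chromosome 17 was 10.7% (26 of 243, at 1.3-fold) to 57.1% (8 of 14, from 50 TPM). In replicates 2 and 3 the share of their own genes was 4.35 and 3.16% at 1.3-fold. Under the same 5 settings it ran from 0 to 5.98% in replicate 2 (highest from 1 TPM). In replicate 3 it ran from 0 to 8% (highest with scaling by the median of ratios).

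**Figure D5:**
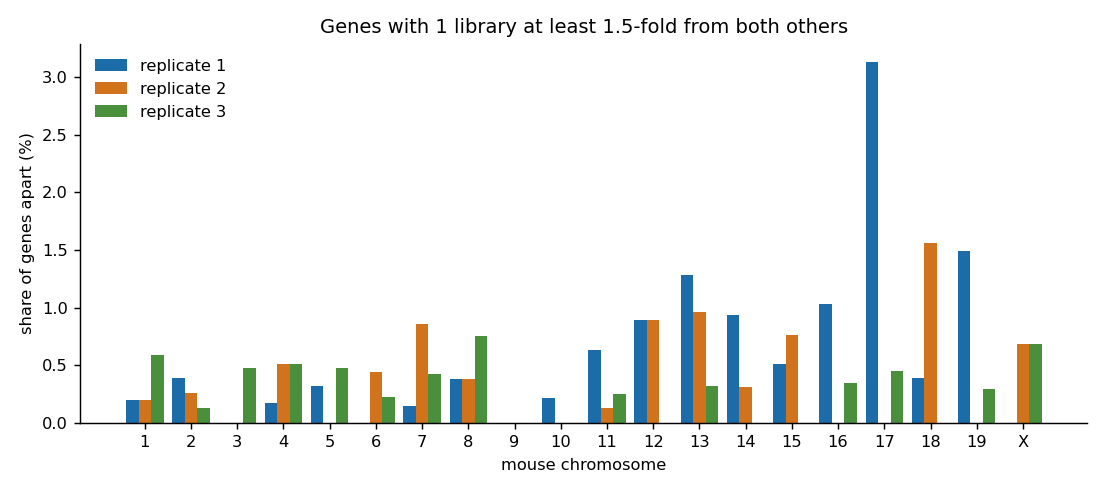
Share of protein-coding genes averaging 10 TPM or more (percent) for which 1 control library lay at least 1.5-fold from both others, by mouse chromosome and library; bars start at 0. Replicate 1 on chromosome 17 stands at 3.13%, and its next highest chromosome, 19, at 1.49%.

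Of these 14 genes, 7 were higher in replicate 1 and 7 lower. The class I histocompatibility genes were higher, H2-K1 at 174, 45.3 and 49.0 TPM (chr17:33996012-34000619) and H2-D1 at 132, 80.1 and 84.3 TPM (chr17:35263094-35267497). Glo1, the glyoxalase that clears methylglyoxal, had 294, 143 and 140 TPM (chr17:30592861-30612659). Mrpl18, a protein of the mitochondrial ribosome, had 93.8, 57.4 and 53.0 TPM, Dnph1 25.9, 11.9 and 15.8, Gtf2h4, a subunit of the transcription factor TFIIH, 21.8, 13.01 and 14.2, and Ermard 18.2, 11.1 and 11.5. In each of these replicate 1 was the highest.

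The lower genes included the widest gaps. Atp6v0c, the ring subunit of the vacuolar proton pump (chr17:24163865-24169678), had 139, 918 and 886 TPM, and the chromatin protein Hmga1 (chr17:27556574-27563672) had 15.1, 90.9 and 114 TPM. Hcfc1r1 had 124, 212 and 218 TPM, Ppil1 44.6, 74.3 and 84.6, Hn1l 14.3, 25.7 and 28.6, Amdhd2 14.2, 24.6 and 24.9, and Tagap1 12.8, 20.03 and 26.7. For Atp6v0c a near copy on another chromosome stood the opposite way. This copy, Atp6v0c-ps2 on chromosome 6, whose sequence matches the Atp6v0c frame at 99.1% (4 differences in 468 bases), had 1211, 191 and 248 TPM, so that the sum of both was 1350, 1109 and 1134 TPM. The values of the single members of this pair are uncertain, because reads can be split between copies. The value of Hmga1 is uncertain for the same reason. Qk itself lies on the same stretch (chr17:10206471-10319361) and was not apart, with 36.5, 43.2 and 41.3 TPM. The labels give the same strain, genotype, tissue and age for all 3 libraries, and what replicate 1 differs in was not tested.

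The genes for which replicate 2 or 3 was apart were less concentrated by chromosome. For replicate 2 the highest share was on chromosome 18, with 4 of 256 genes (1.56%), and chromosome 7 had 6 of 703 (0.853%). For replicate 3 the highest was chromosome 8, with 4 of 528 (0.758%). Replicate 2 was low for the plexus genes Ttr and Folr1 and, chosen after their values were seen, for Bst2 (41.6, 13.4 and 28.7 TPM), Ly6a (21.4, 6.99 and 14.2), Ifi27l2a (22.6, 4.84 and 12.3) and Ifitm1 (12.8, 6.56 and 14.4). For Ifi27l2a replicate 1 was apart as well, on the high side. Replicate 3 was low for the red cell genes Hba-a1, Hbb-bs, Hbb-bt and Alas2 and for the endothelial Plvap (20.5, 23.3 and 8.54 TPM). It was high for Mgst3, a microsomal glutathione transferase, with 1560, 1353 and 2478 TPM. In replicate 1 single genes elsewhere stood out too: Cd74, the invariant chain of class II molecules, had 20.7, 5.81 and 8.75 TPM, and vasopressin (Avp), a hypothalamic peptide, 2.05, 18.6 and 12.4 TPM.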

How the data were processed

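The 3 control libraries of polyadenylated cortical RNA were sequenced on the Ion Proton, per the labels' protocols. Per the submitters' processing notes, the tools were STAR 2.4.1d with RSEM 1.3.0 and the builds mm10 and GRCm38.p4. Which annotation was used is not given in the sources used here. Each deposited file holds the authors' TPM for every row, and each sums to 1000000 within rounding. TPM keeps no read number, so depth is unknown and no counting interval is given. Values were used as deposited, without scaling. Groups and replicates came from the titles.

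Rows were matched by Entrez number to RefSeq GRCm38.p6 for class and coordinates (99.2% of expressed rows) and to GENCODE transcripts for length and GC (93.0%). Coding frames were compared with edlib 1.3.9.post1, in Python 3.11.15 with numpy 2.4.6 and pandas 2.3.3. Named were the 30 highest rows, the 4 highest and the lowest member of each list, all stage pair genes, the 15 highest and 8 lowest CVs from 10 TPM, 3 rows on each side of 1 TPM, the 5 highest noncoding rows and the sex-linked genes. Others, among them Gad1, Pdgfra, Gpr17, Bcas1, Mag, Aqp4, Sox2, Nes, Mki67, Drd1, Adora2a, Dcx, Eomes and the genes of a library apart, were chosen after their values were seen. Some list members and 1 stage pair are not reported here. The libraries, gene lists and stage pairs were chosen with earlier results of these data known. The script that finds a library apart was tested on simulated data. Alternatives covered the limits, the ranking, scaling by the median of ratios, the pseudocount and leaving out each library.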

Additional observations from a re-analysis of the deposited data

How the results depend on the processing

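Of 373 values recomputed under another setting for 102 results, 330 stayed within a limit that depended on the kind of result. For shares, sums and ratios it was the SD between libraries, and for counts 1.5 times. For the mean correlation it was the SD over the pairs of libraries. For the median CV it was the SD over its values with 1 library left out, and the place of a list had to be unchanged. Many of the 330 are means over the libraries with 1 library left out. Such a mean always moves by less than the SD between libraries, so these values say nothing about stability. Without the cytosolic ribosomal protein genes, the top 100 rows held 22.4% of TPM and the top 1000 held 54.4%. Over protein-coding rows only, the respiratory chain held 4.16%. The mean correlation between libraries was 0.958 with a pseudocount of 0.1 TPM and 0.992 with no filter, and leaving out each library gave 0.977 to 0.981. The median CV was 15.9% with no filter, 7.74% from 10 TPM, and 7.87 to 8.63% when 1 library was left out. A CV of only 2 values tends to lie lower than one of 3, so the last range does not show closer agreement of the remaining libraries. The genes of replicate 1 apart from both others, and those of them on chromosome 17, numbered 12 and 4 at 2-fold, 243 and 26 at 1.3-fold, 285 and 39 from 1 TPM, and 14 and 8 from 50 TPM. These settings were chosen after seeing the data. Ordered by the median of its members rather than their sum, only 2 of the 21 cell type lists kept their place, and choroid plexus went from place 7 to 19. Depth is unknown, so it cannot be said how far counting limits the rows of low TPM. No paired analysis was possible because a single group was analysed.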
